A study of Mus musculus with 12 samples.

Results

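The lymphocyte and blood cell miRNAs mmu-miR-150-5p, mmu-miR-142a-3p, mmu-miR-142a-5p, mmu-miR-342-3p, mmu-miR-342-5p and mmu-miR-31-5p were examined in serum extracellular vesicles (EVs). They were taken by name, 6 of the 1995 features in the count table, and all 6 passed the filter on low counts. The libraries came from 6 Rag1-/- mice given WT splenic T cells (10000000 cells per mouse, intravenously) and 6 Rag1-/- mice given medium, with 1 mouse per library. All 12 mice were Rag1-/-, so the medium group carries the deletion too. The methods describe the mice as males on a C57BL/6 background, used at 8 to 12 weeks of age. Rag1 is needed to assemble antigen receptor genes, so these hosts make no mature T or B cells, but they keep natural killer cells, myeloid cells, platelets and red cells. The sera were enriched for EVs by differential ultracentrifugation. The comparison asks whether EV miRNAs known from lymphocytes differ when T cells are returned to such hosts.

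A mature miRNA is cut from 1 arm of a hairpin precursor (5p or 3p) and guides Argonaute proteins to messenger RNAs, mostly through its seed, bases 2 to 8. miR-150-5p accumulates in mature B, T and natural killer cells, where MYB is its best known target. The miR-142 hairpin is active throughout the blood lineages, including myeloid cells and platelets, and is therefore not particular to lymphocytes. miR-342 lies within Evl and is expressed in several blood lineages, and miR-31-5p is expressed in T cells as well as in epithelia.

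The mature sequences of 5 members, from RefSeq on GRCm38.p6, are shown with the seed in capitals. The sequence of miR-142b is added because its counts followed those of miR-142a-3p.
miR-142a-3p: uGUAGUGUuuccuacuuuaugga
miR-142a-5p: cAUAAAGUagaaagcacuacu
miR-342-3p: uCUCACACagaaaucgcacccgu
miR-342-5p: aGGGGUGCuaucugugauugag
miR-31-5p: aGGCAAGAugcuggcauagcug
miR-142b: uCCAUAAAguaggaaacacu
None of these seeds was shared with another member or with any other of the 1622 features whose sequence could be compared. miR-142a-5p (chr11:87756867-87756887) and miR-142a-3p (chr11:87756903-87756925) lie on the plus strand in an intron of the noncoding gene Mir142hg. miR-342-5p (chr12:108658638-108658659) and miR-342-3p (chr12:108658680-108658702) lie on the plus strand in an intron of Evl. miR-31-5p (chr4:88910614-88910635) lies on the minus strand in an exon of the noncoding gene AL805899.1.

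Total counts ranged from 75475 to 130106 in T cell libraries and from 48997 to 116048 in medium libraries. The methods describe unique molecular identifiers, but the table does not say whether it counts them or reads. T cells 2 and medium 3 stand apart in that no feature in them has a count from 1 to 9, against 34 to 471 such features in the others. T cells 2 also had the lowest number of detected features (1446, against 1670 to 1866 in the other 11) and the lowest TMM factor (0.668). Levels are CPM, a feature's share of a library's counts, after scaling by the trimmed mean of M-values (TMM), which sets libraries to a common level on the assumption that most features do not change. A lower TMM factor gives a higher level than total counts alone would. The factors differed between the groups. They were 0.668 to 0.965 in T cell libraries except T cells 6 (1.18), and 1.09 to 1.32 in medium libraries except medium 1 (0.974). The biological coefficient of variation over the 12 libraries was 0.472.

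None of the 6 lymphocyte miRNAs passed the test between T cell and medium mice, although 5 of the 6 had a higher fitted level with T cells (3 with libraries scaled to total counts, 2 when scaled to abundant features). edgeR called 0 of the 6 at an adjusted p under 0.05, beside 0% of the 1720 features tested (percent called, 0). At an unadjusted p under 0.05 edgeR found 0 of the 6, beside 6.98% of all features (120 of 1720). DESeq2 called 0 of the 4 members to which it gave an adjusted p, beside 7.84% of 561 features (44, of which 40 were higher and 4 lower). At an unadjusted p under 0.05 DESeq2 found 2 of the 6, both arms of miR-142a, beside 7.81% of all features (155 of 1984). limma voom called 0 of the 6 and 0 of all features, with 2 of the 6 and 119 of all features at an unadjusted p under 0.05. In no member did the groups separate in CPM, beside 0.291% of all features (5 of 1720). The median log2 fold change of the members was 0.44, and that of all tested features was -0.049, with 45.2% of features positive. All 6 were counted in each of the 6 medium libraries, that is, in mice with no T or B cells of their own. In serum, fewer vesicles from a cell type and less of a miRNA per vesicle cannot be told apart.

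The members differed widely in level. miR-142a-3p ranked 10 by mean count among all features and led the members in every library. miR-150-5p, miR-342-3p and miR-142a-5p followed, with means of 1182 ± 594, 1126 ± 379 and 1035 ± 300 CPM in T cell mice and 893 ± 449, 794 ± 305 and 645 ± 373 CPM in medium mice (SD, 6 mice per group). These 3 neighbours differed by less than their spread in both groups. miR-31-5p and miR-342-5p were lowest, at 303 ± 144 and 200 ± 70.7 CPM in T cell mice and 347 ± 105 and 178 ± 52.1 CPM in medium mice (SD, 6 mice per group). The mature forms are nearly equal in length (21 to 23 bases for the 5 with a sequence), so levels were not divided by length.

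**Figure D1:**
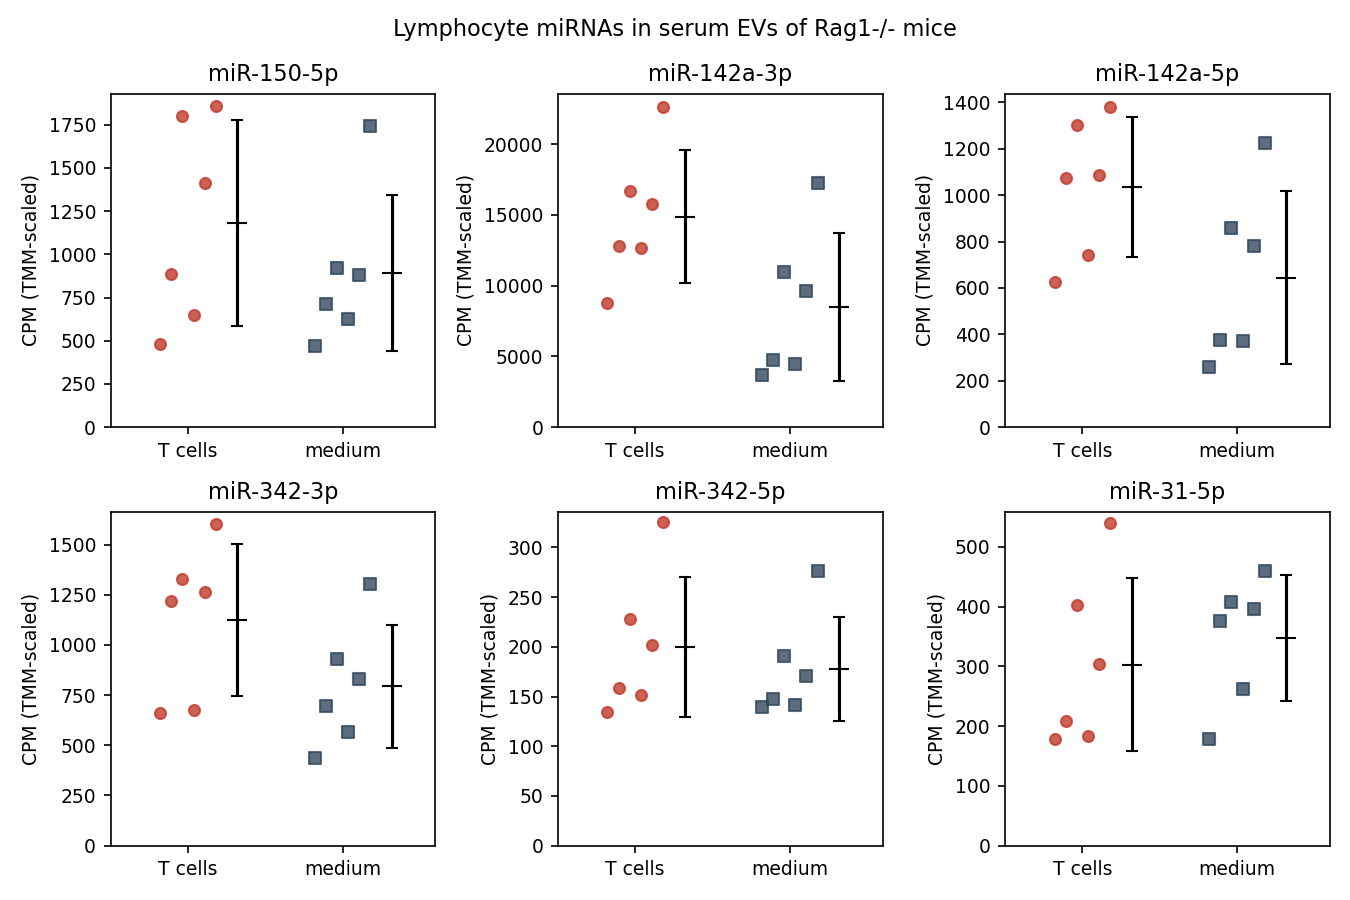
TMM-scaled CPM of the 6 miRNAs in each library, T cell mice as red circles and medium mice as blue squares, with the mean and SD of each group (n = 6) beside the points. Every panel starts at 0, and the groups overlap in all 6 panels.

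miR-142a-3p, the dominant arm of the miR-142 hairpin, had the largest difference of the members in edgeR with TMM scaling and all 12 libraries. This order did not hold with libraries scaled to total counts or abundant features, where miR-31-5p differed more, downward. Nor did it hold without medium 3, where miR-150-5p reached the same 0.70, or without T cells 2 and medium 3, where miR-342-3p was at 0.55. Its lowest, median and highest levels were 8754, 14303 and 22602 CPM in T cell mice, against 3702, 7193 and 17229 CPM in medium mice. Of the medium libraries, 3 lay below every T cell library, at 3702, 4457 and 4776 CPM, whereas medium 1 exceeded all T cell libraries but T cells 2. The means were 14880 ± 4699 CPM in T cell mice and 8456 ± 5229 CPM in medium mice (SD, 6 mice per group). The fold change was 1.76 (95% interval 0.983 to 3.14), a log2 value of 0.81 (standard error 0.40), which did not pass in edgeR (adjusted p = 0.756) or in DESeq2 (adjusted p = 0.212). A two-sided exact permutation test (as all such tests here) of mean log2(CPM + 1), without adjustment over features, gave a difference of 0.98 and p = 0.0455 (smallest possible p 0.00216 for 6 against 6). That p went above 0.05 when any 1 of 9 of the 12 libraries was left out, with differences of 0.79 to 1.23 over all 12 omissions. With libraries scaled to total counts the difference was 0.62 (exact permutation test, p = 0.106). Without T cells 2 and medium 3 the edgeR log2 fold change was 0.53, and without medium 1 it was 1.15. DESeq2 passed miR-142a-3p only when medium 1 was left out (adjusted p = 0.0401), and not after any of the other 11 single omissions.

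miR-142a-5p, the opposite arm, lay at 624, 1079 and 1382 CPM in T cell mice, against 260, 578 and 1225 CPM in medium mice (lowest, median and highest). Of the T cell libraries, 4 fell within the range of the medium group and 2 lay above it. The counts were 72 to 112 per T cell library and 24 to 136 per medium library, with a counting error of 8.57% to 20.4% of the level. The fold change was 1.59 (95% interval 0.968 to 2.62), a log2 value of 0.67 (standard error 0.34, edgeR adjusted p = 0.794, DESeq2 adjusted p = 0.235). The exact permutation test gave p = 0.0671 for a difference of 0.84 in mean log2(CPM + 1). As for the 3p arm, DESeq2 passed it only without medium 1 (log2 fold change 0.95, adjusted p = 0.0488). Medium 1 held the highest level of both arms among medium libraries.

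Both arms moved together across libraries. Pearson's r between them was 0.945 and Spearman's rho 0.902 over the 12 libraries, which share their scaling and depth across all features. Per 100 counts of miR-142a-3p there were 5.76 to 8.49 counts of miR-142a-5p in T cell libraries and 5.46 to 10.2 in medium libraries. The log2 ratio of the 5p to the 3p arm, which needs no scaling of libraries, was -3.83 ± 0.24 in T cell mice and -3.68 ± 0.32 in medium mice (SD over 6 mice per group; p = 0.379 by exact permutation, adjusted over 11 ratios 0.595).

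The feature annotated as miR-142b followed miR-142a-3p most closely of all 304 candidates (r = 0.983, 12 libraries). All 20 bases of miR-142b, printed above, are found in the reverse complement of miR-142a-3p, and it lies opposite to it at chr11:87756906-87756925 on the minus strand. Its counts ran from 277 to 564 in T cell libraries and from 94 to 566 in medium libraries. It stood at 27.8% to 36.4% of miR-142a-3p in T cell libraries and at 28.2% to 39.8% in medium libraries, so that the share varied 1.43-fold while the counts of each varied far more. Its log2 fold change was 0.72 (standard error 0.33, edgeR adjusted p = 0.673, DESeq2 adjusted p = 0.179). The sources used here do not say whether reads were assigned by strand, so the counts of the pair are uncertain with respect to each other.

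**Figure D2:**
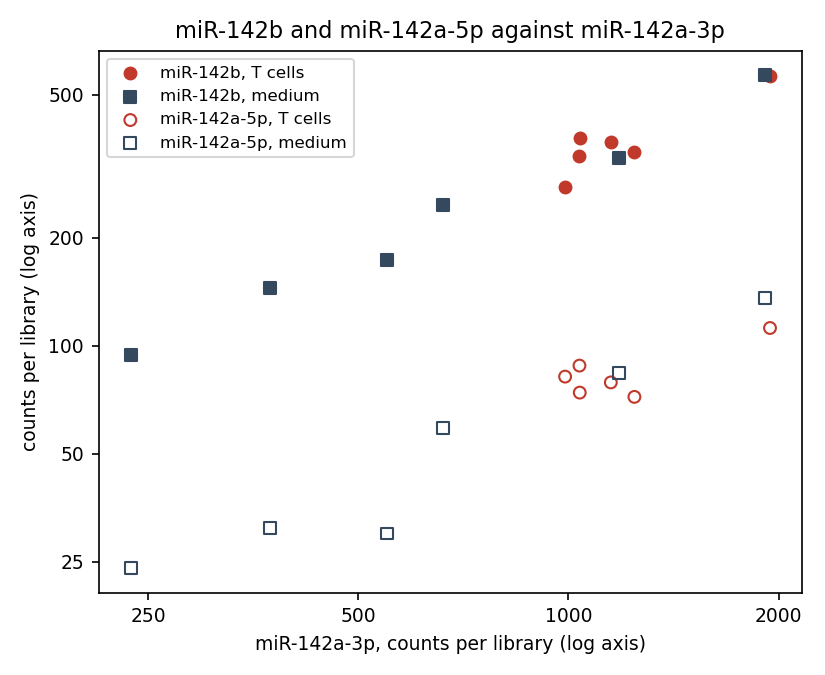
Counts per library of miR-142b (filled) and miR-142a-5p (open) against miR-142a-3p, both axes logarithmic, T cell mice as red circles and medium mice as blue squares. The points of both features rise along miR-142a-3p in both groups, with miR-142b at 27.8% to 39.8% of it.

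miR-150-5p, the member most tied to mature lymphocytes, did not separate the groups. Its lowest, median and highest levels were 481, 1150 and 1860 CPM in T cell mice, against 471, 798 and 1745 CPM in medium mice. Of the T cell libraries, 4 fell within the medium range and 2 lay above it, T cells 2 and T cells 5. Medium 3 alone reached 1745 CPM, while the next medium library had 919 CPM. The fold change was 1.31 (95% interval 0.776 to 2.20), a log2 value of 0.39 (standard error 0.36, edgeR adjusted p = 0.990, DESeq2 adjusted p = 0.638). The interval does not exclude a doubling of the level or a modest decrease. Leaving out medium 3 gave the highest log2 fold change of the 12 omissions (0.70), leaving out T cells 2 the lowest (0.20), and leaving out both gave 0.50. The counts behind these levels were 53 to 160 per T cell library and 30 to 201 per medium library. Counting error was 7.05% to 18.3% of the level, against a coefficient of variation between mice of 50.3% in each group.

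miR-342-3p, the main arm of the Evl hairpin, resembled miR-150-5p. It lay at 660, 1242 and 1604 CPM in T cell mice, against 439, 762 and 1302 CPM in medium mice (lowest, median and highest). Of the T cell libraries, 4 were between 1220 and 1604 CPM, where medium 3 was the one medium library, and the groups overlapped. The fold change was 1.40 (95% interval 0.919 to 2.14), a log2 value of 0.49 (standard error 0.29, edgeR adjusted p = 0.918, DESeq2 adjusted p = 0.376). The exact permutation test gave p = 0.132, and p = 0.0476, not adjusted over features, for a difference of 0.67 when medium 3 was left out. Over the 12 libraries r between miR-342-3p and miR-150-5p was 0.836 (rho 0.853), higher than between either and miR-142a-3p (0.469 and 0.412).

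The minor arm, miR-342-5p, had only 11 to 28 counts per T cell library and 9 to 19 per medium library. Its levels were 134, 180 and 326 CPM in T cell mice, against 139, 159 and 276 CPM in medium mice (lowest, median and highest). The groups overlapped almost entirely, and the highest library was again T cells 2. The log2 fold change was 0.18 (standard error 0.40, 95% interval -0.66 to 1.02, edgeR adjusted p = 0.990), and it was -0.022 without T cells 2. DESeq2 gave no adjusted p. The 2 arms of miR-342 were less alike across libraries than those of miR-142a, with r = 0.226. The log2 ratio of 5p to 3p was -2.44 ± 0.54 in T cell mice and -2.08 ± 0.71 in medium mice (SD over 6 mice per group; p = 0.353 by exact permutation, adjusted over 11 ratios 0.595), where counting alone gives an SD of 0.397 and 0.414.

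miR-31-5p was the only member with a lower fitted level in T cell mice. It lay at 178, 256 and 539 CPM with T cells, against 179, 386 and 460 CPM with medium (lowest, median and highest). The T cell libraries 1, 2 and 3 were at 178 to 209 CPM and the other 3 at 304 to 539 CPM, and the highest and the lowest library of all 12 were both T cell libraries. The log2 fold change was -0.21 (standard error 0.33, 95% interval -0.90 to 0.47, edgeR adjusted p = 0.990), at 13 to 39 counts per T cell library and 15 to 53 per medium library. DESeq2 gave no adjusted p. miR-31-3p, the other arm, had 14 to 60 counts in T cell libraries and 17 to 56 in medium libraries, and its log2 fold change was -0.12 (standard error 0.25, edgeR adjusted p = 0.990). miR-31-5p did not follow the other members, with r from -0.315 to 0.0873 over the 12 libraries.

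**Figure D3:**
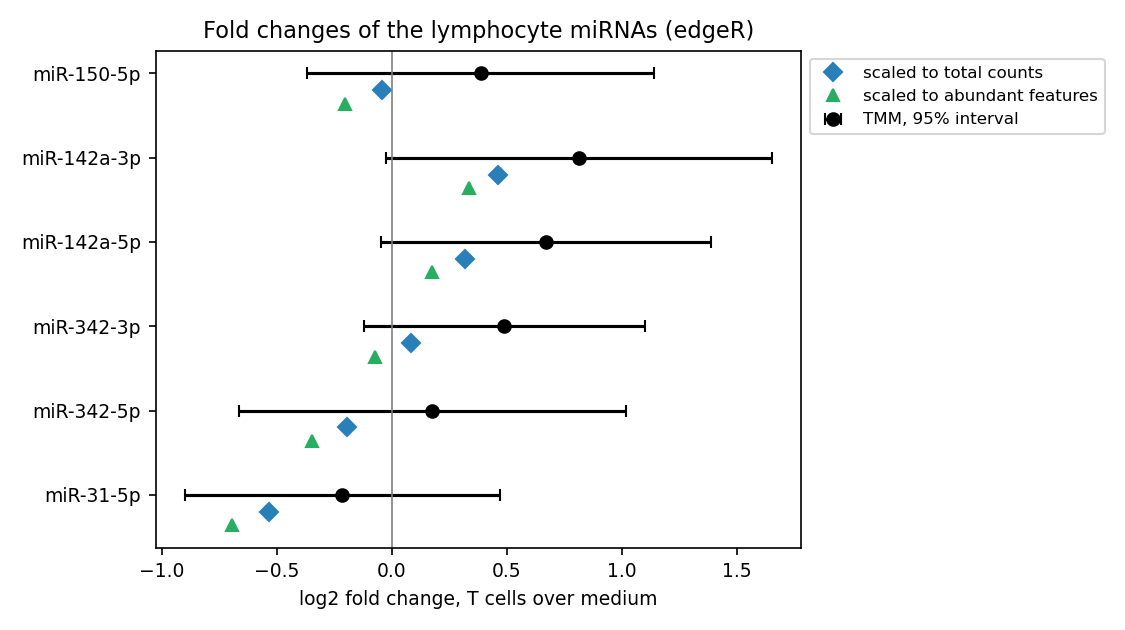
edgeR log2 fold changes of T cell over medium mice (x axis) for the 6 miRNAs, as black circles with 95% intervals after TMM scaling, and as blue diamonds and green triangles after scaling to total counts and to abundant features. All 6 intervals cross 0, and both other scalings lie to the left of TMM for each miRNA.

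The sign of the smaller differences depended on the scaling. With libraries scaled to their total counts, the median log2 fold change of all features moved to -0.38 and that of the members to 0.021, with 3 of 6 positive. The values were then 0.46 for miR-142a-3p, 0.32 for miR-142a-5p, 0.086 for miR-342-3p, -0.044 for miR-150-5p, -0.19 for miR-342-5p and -0.53 for miR-31-5p. After scaling to abundant features (mean count of 100 or more) the median over all features was -0.55, and only the 2 arms of miR-142a were positive, at 0.33 for miR-142a-3p and 0.17 for miR-142a-5p. Only miR-142a-3p and miR-142a-5p were thus higher with T cells under each of these 3 scalings, without passing the test in edgeR under any of them.

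Ratios within a library do not depend on scaling and were formed against miR-223-3p, a miRNA of myeloid cells and platelets, and miR-451a, a miRNA of red cells. miR-223-3p itself gave 1.03 as its log2 fold change (standard error 0.34, edgeR adjusted p = 0.358, DESeq2 adjusted p = 0.0448), and miR-451a one of 0.40 (standard error 0.61, edgeR adjusted p = 0.990), which was -0.051 with total counts and -0.40 without T cells 2 and medium 3. Relative to miR-223-3p, miR-150-5p had a lower mean log2 ratio with T cells, -2.04 ± 0.093 in T cell mice and -1.49 ± 0.65 in medium mice (SD over 6 mice per group; p = 0.0498 by exact permutation, adjusted over 11 ratios 0.274). The 6 T cell libraries lay between -2.16 and -1.91, while the medium libraries ran from -2.15 to -0.48, medium 3 being the highest and medium 5 next at -0.99. The SD of 0.093 among T cell libraries is below the 0.177 that counting error gives, and the SD of 0.649 among medium libraries is above the 0.211 that counting error gives there. Without T cells 2 and medium 3 the difference of -0.55 became -0.33 (exact permutation test, p = 0.143).

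miR-31-5p over miR-223-3p was -3.93 ± 1.03 in T cell mice and -2.78 ± 0.52 in medium mice on the log2 scale (SD over 6 mice per group; p = 0.0346 by exact permutation, adjusted over 11 ratios 0.274). It too lost an unadjusted p under 0.05 without T cells 2 and medium 3 (difference -0.81, exact permutation test, p = 0.127). miR-142a-3p over miR-223-3p was 1.72 ± 0.38 in T cell mice and 1.64 ± 0.58 in medium mice (SD over 6 mice per group; p = 0.777 by exact permutation). Over miR-451a, the differences were 0.41 for miR-142a-3p, -0.062 for miR-342-3p, -0.22 for miR-150-5p and -0.82 for miR-31-5p, and their SDs within a group were 0.76 to 1.62. None of the 11 ratios passed after adjustment.

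**Figure D4:**
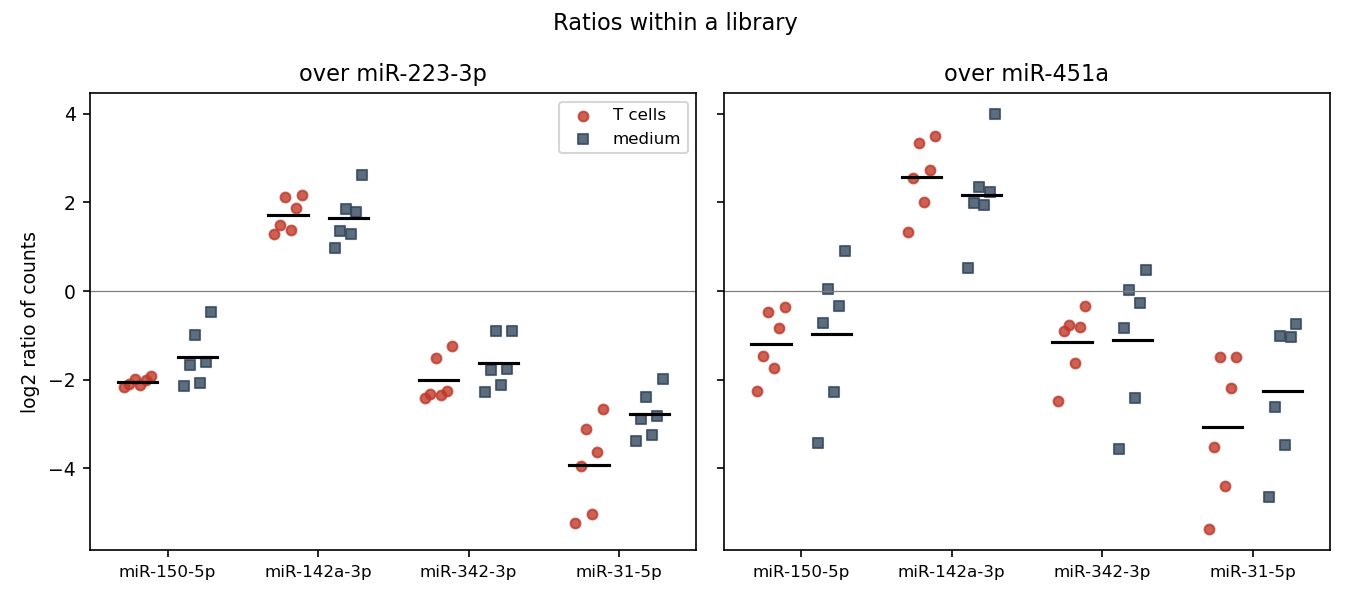
log2 ratios of counts within each library for 4 miRNAs over miR-223-3p (left) and over miR-451a (right), T cell mice as red circles and medium mice as blue squares, with group means as bars (n = 6). miR-150-5p over miR-223-3p is tightly grouped in T cell mice (-2.16 to -1.91) and spread in medium mice (-2.15 to -0.48).

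Other miRNAs known from lymphocytes were examined beside the members. Of 10 measured, 7 had a positive log2 fold change (median 0.37), edgeR called 0, and DESeq2 called 2 higher of the 7 to which it gave an adjusted p, beside 7.13% of all features called higher (40 of 561). These were miR-146a-5p, an inhibitor of inflammatory signalling (log2 fold change 0.94, standard error 0.32, DESeq2 adjusted p = 0.0448), and miR-20a-5p of the miR-17 to miR-92 cluster (0.96, standard error 0.30, DESeq2 adjusted p = 0.0257). Of the same cluster, miR-17-5p had 0.25 (standard error 0.32, DESeq2 adjusted p = 0.797) and miR-19b-3p -0.018 (standard error 0.27, DESeq2 adjusted p = 0.961). miR-92a-3p, listed with the erythroid markers, had 1.05 (standard error 0.37, DESeq2 adjusted p = 0.0535). miR-181a-5p, which tunes T cell receptor signalling, had 0.57 (standard error 0.24, edgeR adjusted p = 0.607). miR-155-5p, induced on lymphocyte activation, had 0.30 (standard error 0.27, edgeR adjusted p = 0.990). edgeR found 4 of the 10 at an unadjusted p under 0.05, beside 6.98% of all features (120 of 1720). They were miR-146a-5p, miR-20a-5p, miR-181a-5p and miR-181c-5p. Scaled to total counts, 5 of the 10 were positive (median 0.049), and scaled to abundant features 4 of the 10 (median -0.11).

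Most miRNAs listed as markers of other blood cells, of endothelium and of liver had positive fold changes. Whether each is particular to its listed cell type, and not also from the transferred T cells, was not tested. Of 5 platelet and myeloid markers, all 5 had a positive log2 fold change (median 0.96). edgeR called 0 of them, and DESeq2 called 3 of the 5 higher, miR-191-5p, miR-223-3p and miR-21a-5p, beside the same 7.13% of all features. Their DESeq2 adjusted p-values were 0.00176, 0.0448 and 0.0499, so that miR-223-3p and miR-21a-5p lay close to the threshold. Whether these calls hold when a library is left out was not tested. The summed level of the 5 was 17635 to 51749 CPM in T cell mice and 8110 to 18987 CPM in medium mice. In T cell mice miR-191-5p and miR-21a-5p had means of 14994.5 and 11051 CPM, against 4875 CPM for miR-223-3p. In medium mice the means of these 3 were 4870, 5689 and 2388 CPM. Of 8 erythroid markers, 7 were positive (median 0.99, 0 called by either tool), with sums of 42777 to 372208 CPM in T cell mice and 30354 to 150108 CPM in medium mice. The negative one was miR-144-3p, at -0.22 (standard error 0.48), and miR-451a was at 0.40 (standard error 0.61). The largest part of the sums was miR-16-5p, at 1.15 (standard error 0.54). Its means were 79390 CPM in T cell mice and 35673 CPM in medium mice. All 4 endothelial markers were positive (median 0.98), with 0 called by edgeR and 1 called higher by DESeq2 of 3 with an adjusted p, miR-126a-5p, and sums of 9007 to 33515 CPM in T cell mice against 3781 to 26909 CPM in medium mice. All 3 liver markers were positive (median 0.77, 0 called by either tool), with sums of 2471 to 3892 CPM in T cell mice against 1394 to 2855 CPM in medium mice. Of 3 muscle markers 1 was positive (median -0.15, 0 called by edgeR and 0 of the 1 with an adjusted p by DESeq2), with sums of 624 to 1634 CPM in T cell mice against 639 to 3213 CPM in medium mice. edgeR found 4 of the 5 platelet and myeloid and 3 of the 8 erythroid markers at an unadjusted p under 0.05. By the same count there were 2 of the 4 endothelial, 2 of the 3 liver and 0 of the 3 muscle markers. Of all features it was 6.98%. One marker, the muscle miRNA miR-206-3p, was at 0 in some libraries, and no other was. The medians of 0.77 to 0.99 of the blood, endothelial and liver lists stand beside 0.44 for the 6 members. Scaled to total counts they were 0.58 for platelet and myeloid, 0.53 for erythroid, 0.61 for endothelial and 0.36 for liver markers, beside 0.021 for the members. Scaled to abundant features they were 0.43, 0.41, 0.45 and 0.19 in the same order, beside -0.14 for the members. Without T cells 2 and medium 3 the erythroid median was 0.41 and the muscle median 0.31, with all 3 muscle markers positive. The part of these cells in the levels of the members was not tested.

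By level across the 12 libraries, the features most like miR-150-5p were miR-30a-5p (r = 0.841), miR-342-3p (0.836) and miR-30d-5p (0.790). Those most like miR-142a-3p, after miR-142b, were let-7i-5p (0.965) and miR-128-3p (0.955). For miR-342-3p they were let-7j (0.876), the merged feature let-7a-1-3p/let-7c-2-3p (0.870) and miR-10a-5p (0.863). For miR-31-5p the highest values were lower, at 0.670 for miR-5625-3p, 0.665 for miR-325-3p and 0.636 for miR-484. In the same order, r was 0.877, 0.820 and 0.457 among T cell libraries alone, and 0.296, 0.191 and 0.831 among medium libraries alone. The candidates were the 304 features with a mean count of 50 or more, and the points share library, depth and scaling.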

How the data were processed

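Small RNA libraries of serum EVs were prepared with a Qiagen miRNA kit. The submitters' processing notes name bcl2fastq 2.18.0.12 for base calls, and the authors then trimmed and aligned the reads, with UMIs identified, against miRBase and mm10 in the GeneGlobe Data Analysis Center. The deposited values are whole-number counts, not normalized, for 1885 miRNAs and 110 piRNAs in 12 columns, all assigned to a sample. The 6 members, the marker lists and the naming rule (members, their 3 most correlated features, list members that pass or are most abundant) were chosen with earlier results of these data known.

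Low features were removed by filterByExpr (by group), libraries were TMM-scaled, and each of the 1720 remaining features was tested by quasi-likelihood in edgeR 4.0.16 (R 4.3.3). Adjusted p-values (Benjamini-Hochberg) cover all 1720, with 0.05 as the threshold. Standard errors were derived from that test, as the absolute log2 fold change divided by the square root of its F statistic. The 95% intervals were built from them with t quantiles. Both are approximate, and unstable for very small fold changes. DESeq2 1.42.0, which the methods name, and limma 3.58.1 (voom with quality weights) were run beside it. Levels (log2(CPM + 1)) and ratios (counts + 0.5) were compared by two-sided exact permutation tests. These were written with numpy 2.4.6, and the routine was compared with that of scipy 1.17.1. Procedures were tested on simulated data. Alternatives were the tool, the scaling, the filter, miRNAs alone, a block for the replicate number, and the omission of each library. Scaling to abundant features, leaving out T cells 2 with medium 3, marker lists under other settings, and DESeq2 with omissions were chosen after seeing the data. Library totals of 48997 to 130106 counts limit the precision of scarce features.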

Additional observations from a re-analysis of the deposited data

Results flagged for a closer look

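miR-150-5p stood at 1745 CPM in medium 3, far from the other 5 medium libraries, of which the next had 919 CPM. The gap was 0.649 of the range of the group, above the critical value of 0.625 of Dixon's test for 6 values. Of 34 groups of 6 values examined, this was the only one past that value, and chance alone passes about 1 in 20 groups. Medium 3 holds no count from 1 to 9. It was also the highest medium library for miR-342-3p (1302 CPM) but the lowest for miR-142a-5p (260 CPM). The cause was not tested.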

How the results depend on the processing

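edgeR called 0 features under each of its alternatives, against 44 in DESeq2 and 18 in DESeq2 without its filters. When 1 library was left out, DESeq2 called from 15 features (without medium 5) to 68 (without T cells 6). The lowest adjusted p of a member under an edgeR or voom alternative was 0.289. Of 142 member fold changes under alternatives, 7 changed sign. Scaling to total counts gave -0.044 for miR-150-5p and -0.19 for miR-342-5p (-0.0074 and -0.22 as differences in mean log2(CPM + 1)), and scaling to abundant features gave -0.20 for miR-150-5p, -0.072 for miR-342-3p and -0.35 for miR-342-5p. Without both T cells 2 and medium 3, miR-342-5p was at -0.072 (-0.052 in mean log2(CPM + 1)), and the ratio differences were -0.0079 for miR-142a-3p over miR-223-3p, 0.37 for miR-150-5p over miR-451a and 0.52 for miR-342-3p over miR-451a. The cause was not tested.

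With each library left out in turn, the edgeR log2 fold changes ran from 0.20 to 0.70 for miR-150-5p, 0.65 to 1.15 for miR-142a-3p, 0.50 to 0.96 for miR-142a-5p, 0.35 to 0.69 for miR-342-3p, -0.022 to 0.34 for miR-342-5p and -0.43 to -0.10 for miR-31-5p. For miR-342-5p, DESeq2 gave -0.021 to 0.33 and mean log2(CPM + 1) -0.0073 to 0.28. DESeq2 gave 0.65 to 1.14 for miR-142a-3p and 0.50 to 0.95 for miR-142a-5p, both past the threshold without medium 1. Ratio differences ran from -0.054 to 0.27 for miR-142a-3p over miR-223-3p, -0.71 to 0.16 for miR-150-5p over miR-451a and -0.55 to 0.25 for miR-342-3p over miR-451a. The exact permutation p of miR-150-5p over miR-223-3p went above 0.05 without 10 of the 12 libraries (differences -0.68 to -0.34), and that of miR-31-5p over miR-223-3p without 7 (-1.41 to -0.89).

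The labels do not say whether the replicate numbers pair the mice. After removal of group means, the correlations of same-numbered libraries were -0.306 to 0.0804, and 1 of 12 libraries correlated best with its own number. Low correlations cannot exclude a pairing. With the replicate block edgeR called 0 features, with miR-142a-3p at 0.99 (adjusted p = 0.392), and the paired exact permutation p of its level was 0.0938. Counts under 50 are limited by depth, and held for all libraries of miR-342-5p and most of miR-31-5p. They also occurred in medium libraries of other members. miR-142a-5p had 30, 31 and 24 counts in medium 3, medium 5 and medium 6. In medium 2 and medium 6, miR-150-5p had 43 and 30 counts and miR-342-3p had 39 and 28.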

Other observations

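Among the other lymphocyte miRNAs, miR-181c-5p stood at 1.14 in log2 fold change (standard error 0.28, edgeR adjusted p = 0.251), with no adjusted p from DESeq2. It was named after its values were seen. Of the same family, miR-181b-5p and miR-181d-5p had -0.13 (standard error 0.27) and -0.12 (standard error 0.32), and neither passed the test in edgeR.

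The share of all counts taken by miR-142a-3p was 1.01% to 1.49% in T cell libraries and 0.482% to 1.65% in medium libraries. miR-31-3p stood at 43.8% to 194% of miR-31-5p in T cell libraries and at 70.8% to 240.0% in medium libraries, and miR-150-3p at 7.5% to 34.9% of miR-150-5p in T cell libraries and at 14.4% to 56.7% in medium libraries.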
